A study of Homo sapiens with 6 samples.

Results

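NES, the gene of the intermediate filament protein nestin, was described together with 9 other intermediate filament genes outside the keratins in DCIS.COM cells with and without BCL9 knockdown. The 10 genes (NES, VIM, SYNM, LMNA, LMNB1, LMNB2, DES, GFAP, INA and NEFL) were taken by their symbols from a table of 58676 genes, and all 10 were found. DCIS.COM is an established human breast cell line of the basal type that is used as a model of ductal carcinoma in situ. The NS control cells carried the PLKO.1 lentiviral vector with a non-silencing shRNA, and the BCL9 KD cells carried the same vector with a single shRNA against BCL9, so an effect of that shRNA on other transcripts cannot be told apart from that of BCL9. Each group had 3 samples, grown in separate flasks of the 1 line. The question was whether the decrease of NES in BCL9 KD cells was shared by the rest of its family. That decrease, seen earlier in these samples, is why the family was chosen, so the NES values are given as a description without a test.

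Intermediate filaments are rope-like polymers of coiled-coil proteins that give the cell and its nucleus mechanical strength. Epithelial cells build them mainly from keratins. Vimentin is the filament protein of mesenchymal cells and of many cultured or invasive epithelial cells, while nestin and synemin are large proteins that depend on a partner such as vimentin to enter a filament. Nestin is best known from neural progenitor cells and is also found in basal cells of the mammary gland. Lamins line the inner face of the nuclear envelope, with A-type lamins from LMNA and B-type lamins from LMNB1 and LMNB2. Desmin belongs to muscle, GFAP to astrocytes, and alpha-internexin (INA) and the neurofilament light chain (NEFL) to neurons.

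The samples held between 15222452 and 26949026 reads counted on genes. All 12 markers of basal mammary epithelium, KRT5, KRT14 and TP63 among them, had a mean of at least 0.5 FPKM, and 0 of the 12 passed a limma adjusted p-value of 0.05 between the groups, as 5.87% of the 13745 genes tested did. FPKM is a read count scaled for gene length and for sequencing depth. Of 8 luminal mammary markers 5 reached that level, KRT8, KRT18 and GATA3 among them, with a summed level of 435 to 552 FPKM in NS control and 396 to 414 FPKM in BCL9 KD cells, and PGR was listed at 0. Of 7 fibroblast markers, 1 (COL1A1) reached that level, with a summed level of 0.702 to 0.732 FPKM in NS control and 0.768 to 0.905 FPKM in BCL9 KD cells. Of 8 markers of neural progenitors and glia, 1 (S100B) reached it, with a summed level of 44.5 to 46.9 FPKM in NS control and 50.2 to 65.8 FPKM in BCL9 KD cells, and SOX2, MSI1, FABP7 and OLIG2 were listed at 0 in all 6 samples. The same held for 1 of 6 neuronal markers (MAP2) and 0 of 6 muscle markers. The endothelial list, with 1 of 5 markers (PECAM1) at that level, was summed at 1.90 to 2.45 FPKM in NS control and 3.23 to 4.07 FPKM in BCL9 KD cells. PECAM1 passed as higher in BCL9 KD cells, the only marker of these lists to pass, while 2.96% of all genes tested were called higher. The summed levels of the luminal, fibroblast, endothelial and neural progenitor lists did not overlap between the groups. Of all single genes tested, 34.2% did not overlap either. The luminal sum rests largely on KRT8 and KRT18, which averaged 293 and 177 FPKM in NS control samples. The part of these lists in the results below was not tested. BCL9 itself, the target of the shRNA, stood at 6.25, 6.24 and 5.34 FPKM in the control samples and at 2.86, 2.78 and 2.59 FPKM after knockdown (log2 difference −0.99, SE 0.0933, limma adjusted p = 0.00773). That call was lost without NS control replicate 2 (0.0636), BCL9 KD replicate 2 (0.0600) and BCL9 KD replicate 3 (0.0700).

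NES and VIM carry the contrast that the values turn on, since the nestin gene fell most and the vimentin gene was the most abundant cytoplasmic filament gene of the group. The 250 bases before their RefSeq transcription starts (GRCh38.p14) are therefore shown. The NES stretch is chr1:156677408-156677657 on the minus strand, and the VIM stretch is chr10:17227991-17228240 on the plus strand. Capitals mark matches to CCGCCC, the core of a GC box, on either strand.
NES: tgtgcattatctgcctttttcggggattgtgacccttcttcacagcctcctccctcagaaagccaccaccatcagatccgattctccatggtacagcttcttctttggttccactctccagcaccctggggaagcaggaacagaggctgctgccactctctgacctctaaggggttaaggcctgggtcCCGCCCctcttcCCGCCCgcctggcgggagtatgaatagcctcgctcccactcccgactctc
VIM: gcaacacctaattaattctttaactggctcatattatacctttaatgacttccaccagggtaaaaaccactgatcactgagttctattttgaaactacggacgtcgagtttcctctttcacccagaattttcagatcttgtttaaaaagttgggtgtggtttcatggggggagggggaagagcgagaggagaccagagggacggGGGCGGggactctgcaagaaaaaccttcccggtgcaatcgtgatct
CCGCCC had 2 matches before NES and 1 before VIM, and it was present in 42.6% of 35116 promoter stretches of that length. TTCNNNGAA, the palindrome that STAT factors bind, and TCAAAG, a core of TCF/LEF sites, were searched on both strands because STAT3 and the TCF/LEF-bound catenin complex are partners of BCL9. Neither had a match in the NES or the VIM stretch, while they were present in 6.57% and 11.2% of the promoter stretches. The searched motifs did not overlap each other in these stretches. These matches describe letters in a short window and say nothing of the binding of a factor.

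NES (ENSG00000132688) lies on chromosome 1 of hg38 from 156668763 to 156677397, on the minus strand. Its level was 2.73, 3.13 and 2.84 FPKM in NS control replicates 1, 2 and 3, on 345, 352 and 240 reads. In BCL9 KD replicates 1, 2 and 3 it was 0.478, 0.394 and 0.345 FPKM, on 47, 59 and 30 reads. The groups were fully separated, and the lowest NS control value was 5.71 times the highest BCL9 KD value. The 95% Poisson intervals of the samples reached up to 0.636 FPKM in BCL9 KD replicate 1 and down to 2.45 FPKM in NS control replicate 1. Such intervals cover counting error only, not the variation between samples, and PCR copies of a molecule were not told apart. NES was chosen for its decrease in these samples, so the gap between the groups is a description. The NS control mean was 2.90 ± 0.206 FPKM (SD, n = 3) and the BCL9 KD mean 0.406 ± 0.0677 FPKM (SD, n = 3), a ratio of 7.15. In these bulk samples, fewer cells with nestin RNA and less nestin RNA per cell cannot be told apart.

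On the log2(FPKM + 0.5) scale used for all genes, the NES difference was −1.91 (SE 0.123), which understates the ratio because the added 0.5 FPKM is above the NES level in BCL9 KD cells. With voom, a weighted limma fit on the reads recovered from the FPKM, it was −2.83. The BCL9 KD mean of NES is itself under the minimum mean of 0.5 FPKM that a gene needed to be tested, so NES was among the genes tested only through its NS control values. For comparison, BCL9 kept 46.1% of its NS control mean and NES kept 14.0%.

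**Figure D1:**
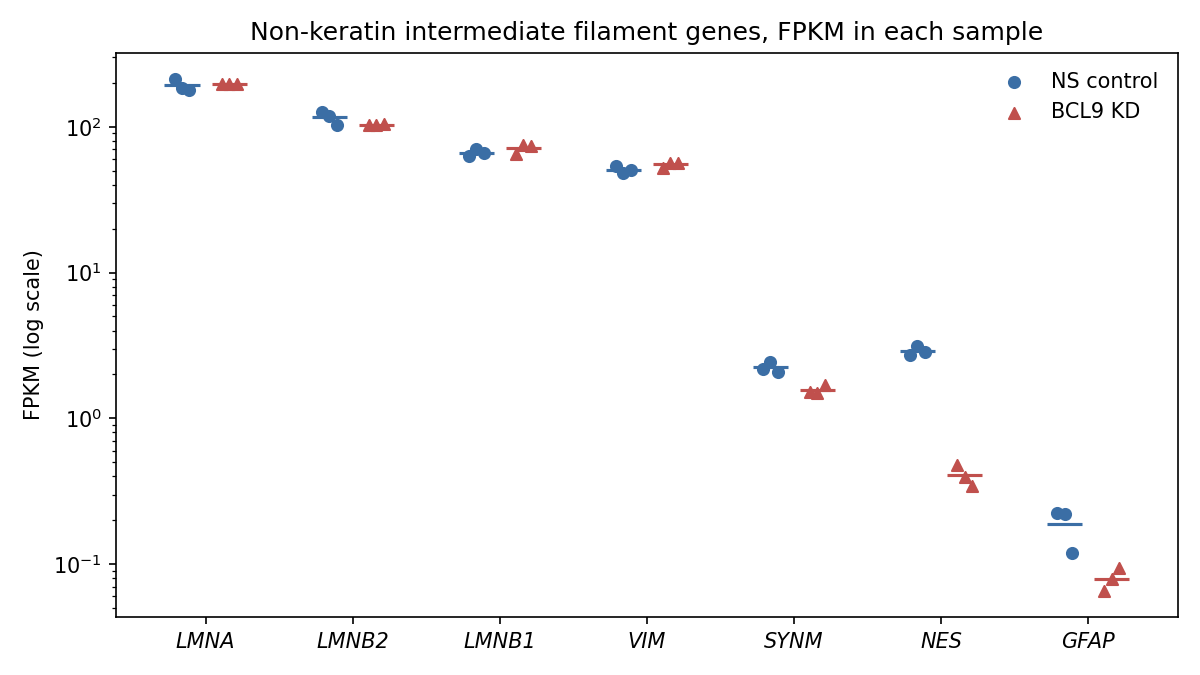
FPKM of 7 non-keratin filament genes on a log scale, with a point for each NS control sample (blue circles) and BCL9 KD sample (red triangles) and a bar at each group mean of 3 samples. The NES points of the groups are far apart, at 2.73 to 3.13 FPKM and 0.345 to 0.478 FPKM, while those of LMNA, LMNB1, LMNB2 and VIM interleave.

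VIM (ENSG00000026025), on chromosome 10 from 17228259 to 17237593, encodes vimentin, a filament partner of nestin. Its level was 53.9, 48.2 and 50.2 FPKM in the NS control replicates and 52.3, 56.5 and 56.6 FPKM in the BCL9 KD replicates. The groups overlapped, since BCL9 KD replicate 1 lay under NS control replicate 1. The log2 difference was 0.12 (SE 0.0725, 95% interval −0.05 to 0.29, limma adjusted p = 0.328 over all genes tested). On this scale the interval runs from a decrease of 3.67% to an increase of 22.2%, so it holds no decrease near the size seen for NES. VIM shares 1727 bases with the antisense gene VIM-AS1, and since the counting is not stated to use strand, reads of that stretch cannot be assigned. VIM-AS1 had a mean of 1.10 FPKM.

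SYNM (ENSG00000182253), on chromosome 15 from 99098217 to 99135593, encodes synemin, which like nestin joins filaments built by another protein. Its level was 2.20, 2.42 and 2.08 FPKM in the NS control replicates and 1.53, 1.49 and 1.70 FPKM in the BCL9 KD replicates. The groups did not overlap, the knockdown samples being the lower ones, with p = 0.1 in a two-sided exact permutation test, the smallest p that 3 against 3 samples allow. The log2 difference was −0.40 (SE 0.105, 95% interval −0.65 to −0.15, limma adjusted p = 0.0686), so SYNM did not pass the threshold of 0.05. It passed with voom on the recovered reads (−0.52, limma adjusted p = 0.0297) and in 0 of the 6 fits that left out a sample. The BCL9 KD mean was 70.4% of the NS control mean for SYNM, against 14.0% for NES. SYNM rested on 208 to 390 reads per sample. It overlaps the antisense gene RP11-654A16.3 over 7608 bases, and that gene had a mean of 0.919 FPKM.

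NES stood above SYNM in every NS control sample and below it in every BCL9 KD sample, on the FPKM scale, which divides by gene length. These were the only neighbours in the order of the 8 detected genes whose order turned around with full separation in both groups. NES was chosen for its decrease, so this change of order is a description.

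The lamin genes were the most abundant of the group. LMNA (ENSG00000160789), on chromosome 1 from 156082573 to 156140089, gives lamins A and C. Its level was 213.9, 184.4 and 179.2 FPKM in the NS control replicates and 195.7, 198.0 and 197.6 FPKM in the BCL9 KD replicates. The BCL9 KD values lay inside the range of the NS control values. The log2 difference was 0.04 (SE 0.0839, 95% interval −0.16 to 0.24, limma adjusted p = 0.791), and its sign turned under quantile normalization (−0.12), under median-of-ratios scaling (−0.0057) and without NS control replicate 3 (−0.01). LMNA lies 529 kb from NES on the same chromosome.

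Neither of the B-type lamin genes passed the test. LMNB1 (ENSG00000113368), on chromosome 5 from 126776623 to 126837020, had 63.3, 70.1 and 66.0 FPKM in the NS control replicates and 65.4, 75.5 and 74.2 FPKM in the BCL9 KD replicates, with a log2 difference of 0.11 (SE 0.0815, 95% interval −0.09 to 0.30, limma adjusted p = 0.421). LMNB2 (ENSG00000176619), on chromosome 19 from 2427638 to 2456996, had 126.3, 118.3 and 103.4 FPKM in the NS control replicates and 102.6, 103.3 and 105.0 FPKM in the BCL9 KD replicates, with a log2 difference of −0.16 (SE 0.0860, 95% interval −0.36 to 0.05, limma adjusted p = 0.278). The groups overlapped for both genes, and for LMNB2 through NS control replicate 3. LMNB2 shares 257 bases with TIMM13 on the same strand, so reads there are uncertain.

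Ratios within a sample do not depend on a single factor by which that sample was scaled, but quantile normalization can change them. The ratio of LMNA to LMNB1 was 3.38, 2.63 and 2.72 in the NS control replicates and 2.99, 2.62 and 2.66 in the BCL9 KD replicates. The ratio of VIM to LMNA was 0.252, 0.262 and 0.280 in the NS control replicates and 0.267, 0.285 and 0.287 in the BCL9 KD replicates. Neither ratio separated the groups (two-sided exact permutation test, p = 0.6 for LMNA to LMNB1 and p = 0.2 for VIM to LMNA, n = 3 in each group). With quantile normalization the log2 difference of the ratio between the groups went from −0.07 to −0.20 for LMNA to LMNB1. For VIM to LMNA it went from 0.08 to 0.20. VIM as a percentage of the summed keratin FPKM, a ratio added after the values were seen and given without a test, was 1.75, 1.83 and 1.94 in the NS control replicates and 1.99, 2.02 and 2.04 in the BCL9 KD replicates. These values did not overlap, the BCL9 KD samples being higher by a small margin.

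**Figure D2:**
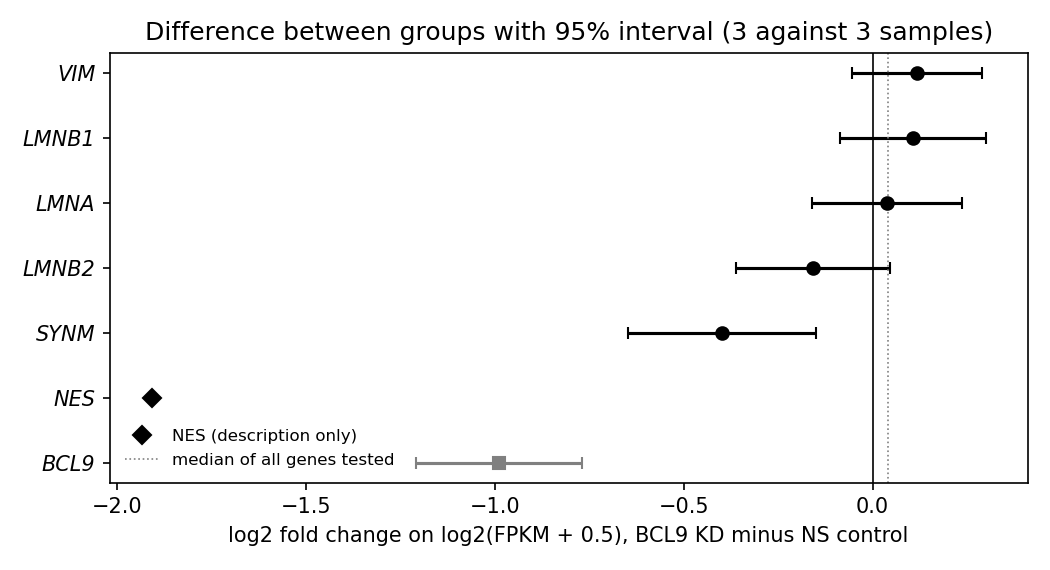
Difference in log2(FPKM + 0.5) between knockdown and control (BCL9 KD minus NS control), with the 95% limma interval from 3 against 3 samples, for 5 filament genes and for BCL9 (grey square). NES (diamond) is drawn without an interval, as a description. The dotted line is the median of all genes tested, 0.04. NES is at −1.91, SYNM at −0.40, and the intervals of VIM, LMNB1, LMNA and LMNB2 include 0.

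The 4 remaining genes lay under the minimum of 0.5 FPKM and were not in the test over all genes. GFAP (ENSG00000131095), on chromosome 17 from 44905008 to 44916937, had 0.224, 0.219 and 0.119 FPKM in the NS control replicates, on 31, 27 and 11 reads. In the BCL9 KD replicates it had 0.0651, 0.0793 and 0.0944 FPKM, on 7, 13 and 9 reads. The FPKM did not overlap (p = 0.1 by the same exact permutation test), but the Poisson interval of NS control replicate 3 (0.0593 to 0.212 FPKM) overlapped those of all BCL9 KD samples. With no filter on low FPKM, GFAP had a limma adjusted p = 0.277. Among the 1919 genes under the filter with a mean of at least 10 reads, 7.45% were likewise lower without overlap.

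NEFL (ENSG00000277586) had 0.0814, 0.103 and 0.258 FPKM in the NS control replicates and 0.118, 0.00857 and 0 FPKM in the BCL9 KD replicates. These values rest on 8, 9 and 17 reads and on 9, 1 and 0 reads, and they overlapped between the groups. The count of 0 in BCL9 KD replicate 3 allows up to 0.0442 FPKM, the level of 3 reads in that sample. DES (ENSG00000175084) and INA (ENSG00000148798) were listed at 0 in all 6 samples. EMD, which encodes the widely expressed lamin partner emerin, was listed at 0 in all 6 samples too, so an entry of 0 in this table was not read as absence.

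By level per gene length, the order over all 6 samples was LMNA, LMNB2, LMNB1 and VIM, without overlap between neighbours in any sample. LMNA held 43.2% to 46.8% of the summed FPKM of the 10 genes, LMNB2 23.7% to 27.7%, LMNB1 13.7% to 17.4% and VIM 11.3% to 13.0%. NES fell from 0.591% to 0.733% of the sum in NS control samples to 0.0791% to 0.114% in BCL9 KD samples. The sum itself was 404 to 463 FPKM in NS control and 418 to 435 FPKM in BCL9 KD samples, overlapping between the groups. Lowest in the order were GFAP and NEFL, whose values overlapped. The keratin genes summed to 2591 to 3077 FPKM in NS control and 2623 to 2797 FPKM in BCL9 KD samples, so the 10 genes made up 13.1% to 13.9% of the RNA of both kinds of filament gene in FPKM.

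Of the 10 genes, 6 reached the minimum level for the fit over all genes. Among the 5 of these other than NES, 0 passed a limma adjusted p-value of 0.05, while 5.87% of all genes tested did. NES, SYNM and, under the minimum level, GFAP were lower without overlap between the groups, and 0 of the 10 genes were higher without overlap. Over all genes tested, 16.4% were lower and 17.8% higher without overlap, 34.2% in all. Since the choice of the genes rests on the NES decrease, these counts are a description of the family. The log2 differences of the 5 tested members other than NES ran from −0.40 to 0.12, and the median of all genes tested was 0.04.

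The other non-keratin filament genes were looked at with the same fit. Of 8 such genes, 2 were tested and 0 passed, against 5.87% of all genes tested, and 1 of them (IFFO2) was lower without overlap, as 16.4% of all genes tested were. IFFO2, an orphan relative of the filament family, averaged 16.2 ± 1.21 FPKM in the control and 13.5 ± 0.568 FPKM after knockdown (SD, n = 3 each), with a log2 difference of −0.25 (limma adjusted p = 0.101). BFSP1, which encodes the lens filament protein filensin, had a log2 difference of 0.06 (limma adjusted p = 0.811), which turned to −0.01 with quantile normalization and to −0.07 without NS control replicate 3. PRPH, NEFM, NEFH, SYNC and IFFO1 were under 0.5 FPKM, and BFSP2 was listed at 0.

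Of 55 keratin genes, 17 were tested. KRT23 and KRT15 were higher in BCL9 KD cells, 0 were lower, and the median log2 difference was −0.02. Over all genes tested 2.96% were called higher. Of the 17 keratins, 5 were lower and 3 higher without overlap, against 16.4% and 17.8% of all genes tested. Both are named after their values were seen. KRT23, a type I keratin, rose from 18.6, 15.5 and 17.2 FPKM in the NS control replicates to 28.3, 29.7 and 30.6 FPKM after knockdown, a log2 difference of 0.78 (SE 0.0840, limma adjusted p = 0.0106). KRT15, a type I keratin of basal epithelial cells, rose from 195.2, 177.7 and 179.2 FPKM to 230.8, 240.5 and 232.2 FPKM, a log2 difference of 0.35 (SE 0.0686, limma adjusted p = 0.0387). The KRT23 call was lost without NS control replicate 2 (0.0636), BCL9 KD replicate 2 (0.0862) and BCL9 KD replicate 3 (0.0900). The KRT15 call was lost without NS control replicate 2 (0.154) and without BCL9 KD replicates 1 (0.0537), 2 (0.193) or 3 (0.185), as well as with median-of-ratios scaling (0.109), quantile normalization (0.0855), no filter on low FPKM (0.111) and limma without the trend (0.0673). Keratin genes are close paralogs, so reads that match several of them are uncertain.

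**Figure D3:**
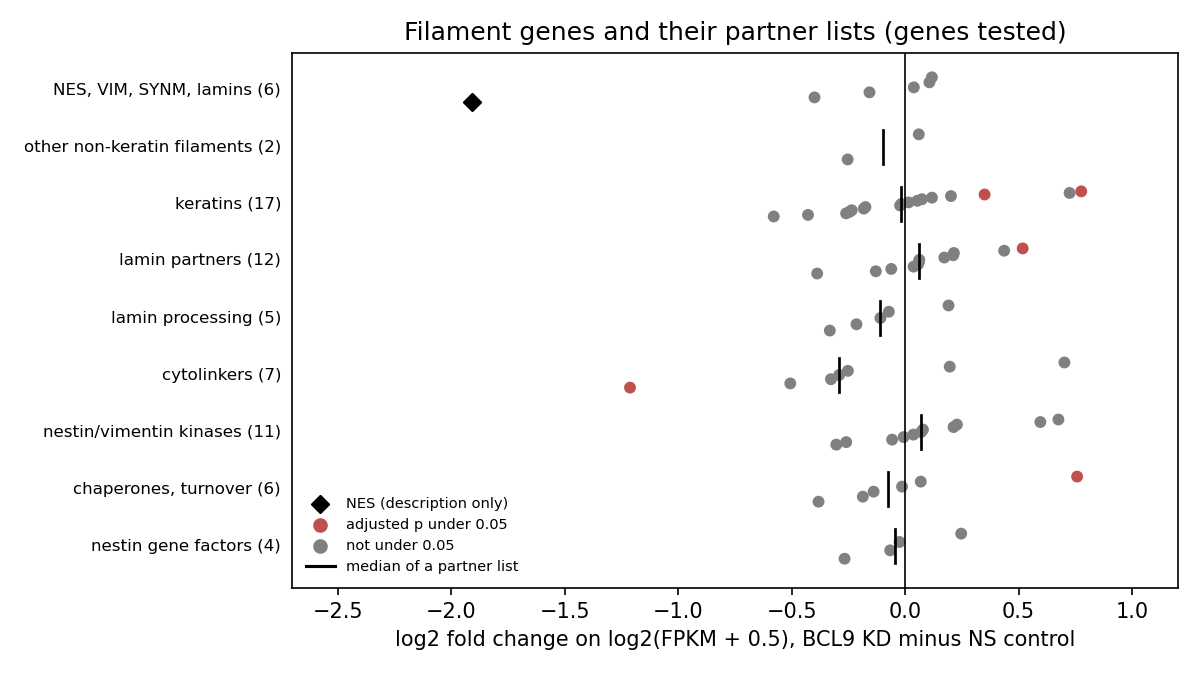
Log2 fold change of each tested gene, BCL9 KD minus NS control, for the 6 filament genes at the top and for 8 lists of related genes, with the number tested in parentheses. Red points passed a limma adjusted p-value of 0.05, vertical bars are the medians of the 8 lists, and NES (black diamond, −1.91) is shown without a test. EPPK1 among the cytolinkers, at −1.21, is the red point farthest to the left.

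Cytolinkers are the large plakin-type proteins that tie intermediate filaments to each other and to junctions. All 7 were tested, 1 passed as lower and 0 as higher, and 4 were lower without overlap, against 2.91% of all genes tested called lower and 16.4% lower without overlap. The median log2 difference was −0.29, against 0.04 over all genes tested. DST (0.70) and PPL (0.20) went the other way without passing, and the rest were negative. EPPK1, which encodes epiplakin, a linker of keratin and vimentin networks, fell from 2.80, 2.63 and 2.19 FPKM in the NS control replicates to 0.958, 0.800 and 0.678 FPKM in the BCL9 KD replicates. The log2 difference was −1.21 (SE 0.138, limma adjusted p = 0.0117), and the ratio of the NS control to the BCL9 KD mean was 3.13. The call was lost without NS control replicate 2 (limma adjusted p = 0.0802), without BCL9 KD replicate 2 (0.0863) and without BCL9 KD replicate 3 (0.0803). EPPK1 is built of near-identical repeats, so its read count is uncertain. PLEC, which encodes plectin, the linker that joins vimentin and keratins to the cytoskeleton and to hemidesmosomes, is named after its values were seen. It had 124.4, 120.7 and 102.1 FPKM in the NS control replicates and 92.5, 74.9 and 76.8 FPKM in the BCL9 KD replicates, a log2 difference of −0.51 just outside the threshold (limma adjusted p = 0.0501). With a sample left out, its adjusted p ran from 0.0341 without NS control replicate 3 to 0.203 without BCL9 KD replicate 2, and it passed without BCL9 KD replicate 1 (0.0370). It also passed with 1 FPKM added (0.0498), with a mean of at least 1 FPKM (0.0439), with quantile normalization (0.0404), with voom (0.0279) and with the GC correction (0.0322).

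Partners that hold lamins at the inner nuclear membrane or link them to the cytoskeleton gave 12 tested genes of 14. Of these 1 was called higher, as 2.96% of all genes tested were, 0 were called lower, and the median log2 difference was 0.06. BANF1, which encodes a small protein that bridges DNA and the nuclear envelope, rose from 49.3, 41.9 and 44.3 FPKM in the NS control replicates to 55.3, 71.7 and 68.5 FPKM in the BCL9 KD replicates. Its log2 difference was 0.52 (SE 0.115, limma adjusted p = 0.0498), at the edge of the threshold. It remained under 0.05 in 1 of the 6 fits that left out a sample, the one without BCL9 KD replicate 1 (0.0274), and the adjusted p otherwise ran from 0.0504 without NS control replicate 1 to 0.201 without BCL9 KD replicate 3. It was 0.0604 without NS control replicate 3, 0.173 without NS control replicate 2 and 0.201 without BCL9 KD replicate 2. The call was also lost with 0.1 FPKM added (0.0504), no filter (0.130), median-of-ratios scaling (0.0890), no trend (0.0767) and robust fitting (0.0509). Of the 5 enzymes that prenylate and process lamins, 5 were tested and 0 passed, against 5.87% of all genes tested, with a median log2 difference of −0.11. Among them ICMT, the methyltransferase of the lamin tail, had a log2 difference of −0.21 (limma adjusted p = 0.166) and ZMPSTE24, the protease that matures prelamin A, had −0.11 (limma adjusted p = 0.383). ZMPSTE24 stood at −0.06 without NS control replicate 2 and at −0.22 with the GC correction.

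All 11 kinases known to act on nestin or vimentin were tested and 0 passed, where 5.87% of all genes tested did, so a count of 0 in a list of this size is near the background. The median log2 difference was 0.07. PAK2, a p21-activated kinase, had a log2 difference of −0.30 (limma adjusted p = 0.0646) and passed without NS control replicate 3 (limma adjusted p = 0.0405). Of 7 genes for chaperones and turnover of filaments, 6 were tested, 1 was called higher and 0 lower, against 2.96% and 2.91% of all genes tested, and 2 were lower and 2 higher without overlap, against 16.4% and 17.8%. The median log2 difference was −0.08. HSPB1, which encodes the small heat shock protein HSP27, a chaperone of filaments, rose from 51.9, 39.8 and 39.8 FPKM in the NS control replicates to 65.4, 78.6 and 78.4 FPKM in the BCL9 KD replicates. The log2 difference was 0.76 (SE 0.129, limma adjusted p = 0.0301), with the call lost without NS control replicate 2 (0.132), BCL9 KD replicate 2 (0.149) and BCL9 KD replicate 3 (0.153). It was also lost with no filter (0.0885), median-of-ratios scaling (0.0530) and no trend (0.0515).

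Of 13 transcription factors that act on the nestin gene in neural progenitors, 4 were tested and 0 passed, against 5.87% of all genes tested, with a median log2 difference of −0.05. SOX9 was abundant, at 132.6 ± 9.39 FPKM in the control and 130.1 ± 2.96 FPKM after knockdown (SD, n = 3 each), a log2 difference of −0.02 (limma adjusted p = 0.850) that turned to 0.06 with the GC correction and to 0.01 without NS control replicate 1. RBPJ, the DNA-binding factor of Notch signaling, had 0.25 (limma adjusted p = 0.331), and 0.08 without NS control replicate 1 and 0.38 without NS control replicate 3. SOX2, SOX3 and SOX11 were listed at 0 in all samples, and POU3F1, POU3F2 and PAX6 had at most 4, 2 and 2 reads in any sample.

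The position of NES was not used to choose it, so its neighbours were compared. Within 100 kb of NES the table lists 12 protein-coding genes, and 10 of them were tested. CRABP2 and ISG20L2 were lower in BCL9 KD cells, 2 of 10, while 2.91% of all genes tested were called lower. Both lie on the upstream side of NES, and CRABP2 is the nearest tested gene there.

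CRABP2 (ENSG00000143320) encodes a retinoic acid carrier that delivers retinoic acid to its nuclear receptor, and its start is 28.4 kb from that of NES. It had 7.52, 9.17 and 9.08 FPKM in the NS control replicates and 3.09, 4.35 and 4.70 FPKM in the BCL9 KD replicates, without overlap. The log2 difference was −1.01 (SE 0.156, 95% interval −1.38 to −0.64, limma adjusted p = 0.0236). ISG20L2 (ENSG00000143319), a nucleolar exonuclease gene with its start at 51.4 kb, had 18.1, 16.8 and 14.9 FPKM in the NS control replicates and 9.93, 11.2 and 11.1 FPKM in the BCL9 KD replicates. Its log2 difference was −0.60 (SE 0.0933, 95% interval −0.83 to −0.38, limma adjusted p = 0.0236). Both calls were lost without NS control replicate 2 (0.116 for CRABP2 and 0.118 for ISG20L2), without BCL9 KD replicate 2 (0.114 and 0.118) and without BCL9 KD replicate 3 (0.0913 and 0.126), while with a sample left out the log2 difference stayed between −1.12 and −0.85 for CRABP2 and between −0.68 and −0.54 for ISG20L2. Both were also lost with no filter on low FPKM (0.0776 and 0.0661).

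The genes on the other side of NES did not pass. BCAN, the nearest one, encodes the brain proteoglycan brevican and averaged 2.22 ± 0.372 FPKM in the control and 2.20 ± 0.295 FPKM after knockdown (SD, n = 3 each), a log2 difference of −0.0049 (95% interval −0.34 to 0.33, limma adjusted p = 0.986). GPATCH4 was lower without overlap, with −0.24 (limma adjusted p = 0.0761). IQGAP3 had −0.15 (limma adjusted p = 0.288) and APOA1BP −0.06 (limma adjusted p = 0.739). On the upstream side, RRNAD1 had 0.24 (limma adjusted p = 0.236), MRPL24 0.15 (limma adjusted p = 0.399), PRCC −0.09 (limma adjusted p = 0.538) and HDGF −0.11 (limma adjusted p = 0.472). With a sample left out, RRNAD1 ran from 0.16 to 0.34, MRPL24 from 0.08 to 0.24 and PRCC from −0.16 to −0.01. HDGF passed with quantile normalization (−0.29, limma adjusted p = 0.0424), and stood at −0.02 without NS control replicate 1 and at −0.0042 with the GC correction. HAPLN2 was under 0.5 FPKM and TTC24 was listed at 0.

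**Figure D4:**
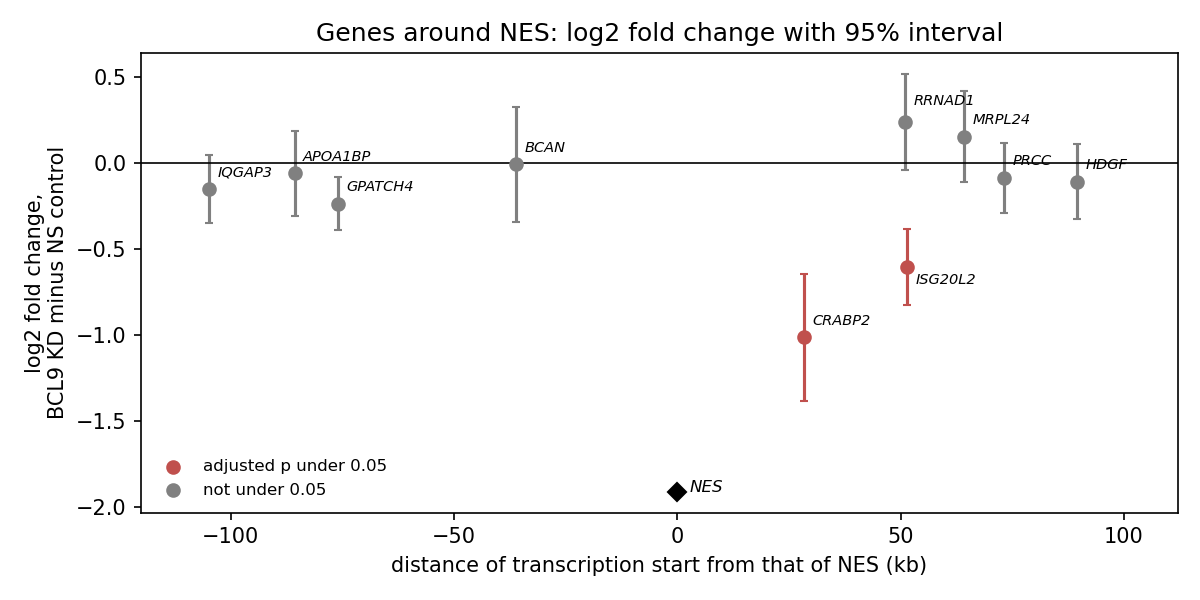
Log2 fold change, BCL9 KD minus NS control, with 95% limma intervals for the 10 tested protein-coding genes around NES, by the distance of their transcription start from that of NES in kb. Positive distances are upstream of NES, which is drawn as a diamond without an interval. CRABP2 at 28.4 kb (−1.01) and ISG20L2 at 51.4 kb (−0.60) are the red points, and BCAN on the other side is at −0.0049.

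Among protein-coding genes with a mean of at least 50 reads, those whose profile over the 6 samples was nearest to that of NES were EPDR1, GABRP, MYL9, EPPK1 and CCND2. Nearness was the Euclidean distance between log2(FPKM + 0.5) values centred on each gene's mean, which was 0.533 for EPDR1 and 0.869, 0.879, 0.891 and 0.985 for the others in that order. A gene with no variation would lie at 2.35. EPDR1, an ependymin-related gene, had 9.96, 11.5 and 9.70 FPKM in the NS control replicates and 3.48, 3.46 and 3.19 FPKM in the BCL9 KD replicates, a ratio of the means of 3.07. GABRP encodes a GABA receptor subunit, MYL9 a myosin light chain and CCND2 cyclin D2, and the ratios of their NS control to BCL9 KD means were 2.37, 3.08 and 2.21. These genes were selected by the same samples, so their nearness is a description.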

How the data were processed

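Per the submitters' processing notes, STAR did the alignment to hg38 and HTSeq 0.6.1 the counting. The authors deposited FPKM per gene and sample, calculated from count and gene length, with the gene length in bases, a value in other units, and gene positions. The release of the gene annotation is not given in the sources used here. The product of FPKM and gene length was a whole number of steps, within 0.1, for 100% of values above 0, which gave reads and depth, 15222452 to 26949026 per sample. With 3 samples per group from separate flasks, genes under about 10 reads have a large counting error.

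The comparison, BCL9 KD minus NS control, used limma 3.58.1 with an empirical Bayes trend (R 4.3.3) on log2(FPKM + 0.5) over 13745 genes with a mean of at least 0.5 FPKM, with Benjamini-Hochberg adjustment over all of them and a threshold of 0.05. The study's own test takes counts (DESeq2), so its test was not used on FPKM. Other tools were scipy 1.17.1, pandas 2.3.3, matplotlib 3.10.9 and numpy 2.4.6 in Python 3.11. The fit was tested on simulated data. No pair of replicates agreed within sampling noise (Pearson r of log2 values 0.964 to 0.987). The closest pair was BCL9 KD replicates 2 and 3, with a chi-square per degree of freedom of 2.16, against 11.7 to 46.9 for the other pairs. Reads at overlapping or antisense genes cannot be assigned, since strand use is not stated.

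The genes and lists were chosen with earlier results of these data known. Named genes are the 10 filament genes and BCL9, from each list the genes that passed (up to 3 each way) or else the 2 most abundant, the protein-coding genes within 100 kb of NES, and the 5 nearest profiles. A gene that this rule names among the kinases is not reported here. Promoter sequences came from RefSeq (GRCh38.p14), with an entry for 7 of the 10 genes. Alternatives were an added 0.1 or 1 FPKM, a mean of at least 1 FPKM or no filter, 2 scalings, limma without trend or with robust fitting, a replicate block, voom, and leaving out each sample. A loess GC correction (span 0.3, GC content from GRCh37 transcripts for 98.8% of genes), alone or with the block, was added after seeing the data. All 3 samples per group in the labels were used, although the study's methods name fewer replicates per condition for its own test, so which samples that test held is open.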

Additional observations from a re-analysis of the deposited data

How the results depend on the processing

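The 807 genes called over all genes became 142 with no filter on low FPKM (4389 at an unadjusted p under 0.05), 536 with median-of-ratios scaling, 332 in limma without the trend, 1400 with voom, 1657 with the GC correction and 200 when the block by replicate number was added to it (136 higher, 64 lower). They ran from 5 without BCL9 KD replicate 3 to 1712 without NS control replicate 3, with 12 without NS control replicate 2 and 13 without BCL9 KD replicate 2. With the replicate block alone limma called 0 genes, with 3235 at an unadjusted p under 0.05. The labels give both groups the numbers 1 to 3, but same-numbered samples did not deviate together (correlations −0.147, −0.0884 and −0.0029), so the numbers were not taken to pair samples. With the GC correction and the block together, ISG20L2 (limma adjusted p = 0.0552), BANF1 (0.0546) and KRT15 (0.0511) were outside the threshold.
The log2 difference of NES was negative in all 18 alternatives, from −2.83 to −1.47. SYNM ran from −0.52 to −0.32, LMNB2 from −0.24 to −0.09, VIM from 0.07 to 0.22 and LMNB1 from 0.06 to 0.19, each with its sign kept. LMNA turned to −0.0057 with median-of-ratios scaling and −0.12 with quantile normalization, and ran from −0.011 to 0.12 with a sample left out. With the GC correction, with or without the block, APOA1BP (0.040), BCAN (0.074), PRCC (0.0062) and SOX9 (0.057) changed sign, and BFSP1 did with quantile normalization (−0.013). With a sample left out, APOA1BP ran from −0.12 to 0.053, BCAN from −0.10 to 0.10, BFSP1 from −0.067 to 0.19, SOX9 from −0.085 to 0.010, and the log2 ratio of LMNA to LMNB1 from −0.14 to 0.044. None of these sign changes concerned a called gene, and their cause was not tested. GFAP and NEFL are limited by depth, with at most 31 and 17 reads in a sample.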
